A study of Mus musculus with 22 samples.

Results

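The genes described here encode the shared core and the variant-specific subunits of Polycomb repressive complex 1 (PRC1), apart from the PCGF6-containing form. The choice was made with earlier results of these data known. The 10 genes were chosen by name and not by a cut on any measured value: Rnf2, Ring1, Rybp, Yaf2, Pcgf1, Pcgf3, Pcgf5, Kdm2b, Bcor and Auts2. They are 10 of the 21887 protein-coding genes of the mouse genome build mm10 that were scanned in the same way. The series profiled chromatin by ChIP-seq in crypts of the mouse small intestine and in embryonic stem cells (ESC) of the E14 line, and 16 of its 22 samples had a peak list. Peaks were assigned to a gene when they touched its body or the 1 kb beyond either end.

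The knockout (KO) crypts came from C57BL/6 mice in which Pcgf6 was inactivated by an inducible Cre. It was either AhCre, whose promoter responds to ligands of the aryl hydrocarbon receptor and which was induced with BNF, or a Cre named for Villin, an epithelial gene of the intestine, which was induced with tamoxifen. The wild-type (WT) crypts came from C57BL/6 mice named by the same Cre lines. Whether the WT mice carried a Cre or a floxed allele, or received the inducer, was not given in the sources used here, nor was the number of mice behind a library. The series design names male mice of 8 to 12 weeks and collection 7 days after induction, but states this for RNA isolation, and the sources do not say it of the ChIP crypts. Crypts hold stem, progenitor, Paneth and other cells, so fewer cells with a bound site and less binding per cell cannot be told apart. In the AhCre line PCGF6, RING1B and the histone mark H2AK119ub1 were profiled in KO and WT crypts. In the Villin line RING1B, H2AK119ub1, CTCF and RAD21 were profiled in both genotypes. PCGF6 and RING1B were also profiled in WT ESC. With a single library in each group there is no replicate error, and no difference between groups was tested.

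PRC1 places a single ubiquitin on a lysine of histone H2A, the mark H2AK119ub1. Its catalytic heart is RING1B, encoded by Rnf2, or its paralogue RING1A, encoded by Ring1, paired with a PCGF protein that sets which further subunits join. The variant complexes hold RYBP or YAF2 in place of a CBX protein. PCGF1 works with KDM2B, which binds unmethylated CpG-rich DNA through its CXXC domain, and with the corepressor BCOR, while PCGF3 and PCGF5 assemble with AUTS2. PCGF6 forms a separate variant that reaches DNA through partners such as MGA, MAX, E2F6 and L3MBTL2.

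The genes lie on 7 chromosomes. Rnf2 spans chr1:151469398-151500991 on the minus strand and Ring1 spans chr17:34020792-34024680 on the minus strand. Rybp spans chr6:100228565-100287358 and Yaf2 chr15:93283833-93336935. Pcgf1 lies at chr6:83077552-83080855, Pcgf3 at chr5:108461259-108506976 and Pcgf5 at chr19:36348329-36460970, the last pair on the plus strand. Kdm2b (chr5:122870664-122989270, minus strand), Bcor (chrX:12036737-12160516, minus strand) and Auts2 (chr5:131437333-132543220) complete the set. The strand of Rybp, Yaf2, Pcgf1 and Auts2 was not used here, so their ends are named by coordinate.

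As a check on the genotype labels, the PCGF6 list held 4779 peaks in KO crypts and 17163 in WT crypts, and 26.9% of all WT peaks overlapped a KO peak. At Pcgf6 itself, a PCGF6 peak of score 20.8 was listed in WT crypts and none in KO crypts. Of all genes with a WT PCGF6 peak 62.7% lost it, so this site is no separate check on the deletion. The other lists held between 1662 and 32651 peaks. The score is the −log10 p or q value of the peak caller, without a statement of which, and it was 10 or more throughout. Scores were not scaled between libraries and depth is unknown, so a KO and a WT score set side by side carry no error and a missing peak means only that none reached the score of 10.

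Promoter sequences of 6 of the 10 genes were at hand in a RefSeq table of GRCm38.p6, which is mm10, giving 12 promoters in all. The 250 bases before the start are shown for 7 of them, because CpG density is the feature that KDM2B reads and because several lie under the peaks described below. Capitals mark CpG dinucleotides, and each sequence runs 5′ to 3′ on the strand of the gene.

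Rnf2 (chr1:151500992-151501241, minus strand): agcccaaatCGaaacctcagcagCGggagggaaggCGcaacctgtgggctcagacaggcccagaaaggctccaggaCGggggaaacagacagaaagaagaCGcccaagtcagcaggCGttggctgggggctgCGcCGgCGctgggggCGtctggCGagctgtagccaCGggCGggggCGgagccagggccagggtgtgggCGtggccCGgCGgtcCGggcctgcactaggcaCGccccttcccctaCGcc
Ring1 (chr17:34024681-34024930, minus strand): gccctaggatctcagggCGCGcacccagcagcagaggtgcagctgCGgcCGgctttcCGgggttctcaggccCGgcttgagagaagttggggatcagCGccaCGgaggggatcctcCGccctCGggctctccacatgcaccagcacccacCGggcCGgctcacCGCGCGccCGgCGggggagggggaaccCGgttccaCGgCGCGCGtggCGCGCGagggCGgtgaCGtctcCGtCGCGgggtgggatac
Pcgf3 (chr5:108461009-108461258, plus strand): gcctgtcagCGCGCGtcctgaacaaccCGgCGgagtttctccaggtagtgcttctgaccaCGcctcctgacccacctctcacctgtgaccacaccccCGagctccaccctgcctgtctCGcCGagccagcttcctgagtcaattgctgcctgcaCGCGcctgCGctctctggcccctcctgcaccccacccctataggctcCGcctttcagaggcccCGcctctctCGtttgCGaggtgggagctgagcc
Pcgf5 (chr19:36348079-36348328, plus strand): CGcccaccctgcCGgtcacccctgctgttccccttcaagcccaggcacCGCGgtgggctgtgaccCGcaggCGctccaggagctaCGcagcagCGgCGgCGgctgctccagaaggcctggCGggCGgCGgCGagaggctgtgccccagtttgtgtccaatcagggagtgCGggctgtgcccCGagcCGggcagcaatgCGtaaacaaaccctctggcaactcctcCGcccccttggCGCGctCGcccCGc
Pcgf5 (chr19:36409498-36409747, plus strand): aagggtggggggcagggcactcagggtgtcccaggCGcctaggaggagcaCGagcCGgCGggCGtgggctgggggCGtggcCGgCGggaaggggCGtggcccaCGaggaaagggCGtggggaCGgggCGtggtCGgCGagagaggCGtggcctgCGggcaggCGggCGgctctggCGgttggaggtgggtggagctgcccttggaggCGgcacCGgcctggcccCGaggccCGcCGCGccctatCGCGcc
Kdm2b (chr5:122900368-122900617, minus strand): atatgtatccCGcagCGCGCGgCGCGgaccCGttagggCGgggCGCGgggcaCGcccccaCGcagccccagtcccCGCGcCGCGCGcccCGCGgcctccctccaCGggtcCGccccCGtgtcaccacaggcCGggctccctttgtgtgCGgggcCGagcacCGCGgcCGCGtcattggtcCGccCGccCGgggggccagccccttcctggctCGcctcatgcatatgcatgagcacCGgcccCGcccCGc
Bcor (chrX:12160356-12160605, minus strand): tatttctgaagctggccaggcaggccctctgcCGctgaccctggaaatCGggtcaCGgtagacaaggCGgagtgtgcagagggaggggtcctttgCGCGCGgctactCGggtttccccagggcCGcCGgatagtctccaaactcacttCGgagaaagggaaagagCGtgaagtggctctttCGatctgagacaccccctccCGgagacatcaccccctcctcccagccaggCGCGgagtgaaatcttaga

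Most of these promoters were CpG-rich. The Kdm2b promoter shown, at an internal start site, had 36 CpG dinucleotides and a GC content of 78.0%, and the Ring1 promoter had 30 and 73.6%. Rnf2 had 20 and 70.4%, and Pcgf3 had 16 and 66.0%. Across 32851 promoters of the table the medians were 6 CpG dinucleotides and 52.4% GC. Among the 12 promoters the lowest was a second Pcgf5 promoter, which is not shown, with 4 CpG dinucleotides and 45.6% GC. Both strands were searched for the E-box CACGTG, the E2F core TTCCCGC, the T-box site TCACACCT and the CTCF core, which occur in 6.02%, 3.82%, 1.12% and 2.93% of all promoters of that length. The single match was an E2F core in the internal Pcgf5 promoter at chr19:36409498-36409747, a stretch that a WT PCGF6 peak overlapped.

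Peaks were listed at every member in at least 4 of the 16 lists, where the median protein-coding gene had a peak in 3. Bcor and Pcgf5 had one in all 16 lists, Auts2 in 14, Kdm2b in 13, Pcgf1 in 11 and Rybp in 9. Ring1 followed with 6, Pcgf3 with 5, and Rnf2 and Yaf2 with 4 each. Their median length was 55.9 kb against 17.2 kb for all protein-coding genes, and 4 of the 10, against 2429 of 21887, reached 100 kb. Those 4, Pcgf5, Kdm2b, Bcor and Auts2, are also the 4 with the most lists. Pcgf1 and Ring1 were short, at 3.3 and 3.89 kb, with peaks in 11 and 6 lists. Rybp and Yaf2, at 58.8 and 53.1 kb, had peaks in 9 and 4. The part of gene length in the number of lists was not tested. Of the 2429 genes that long, 56.4% had a PCGF6 peak in WT crypts and 15.6% a RING1B peak in AhCre WT crypts.

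**Figure D1:**
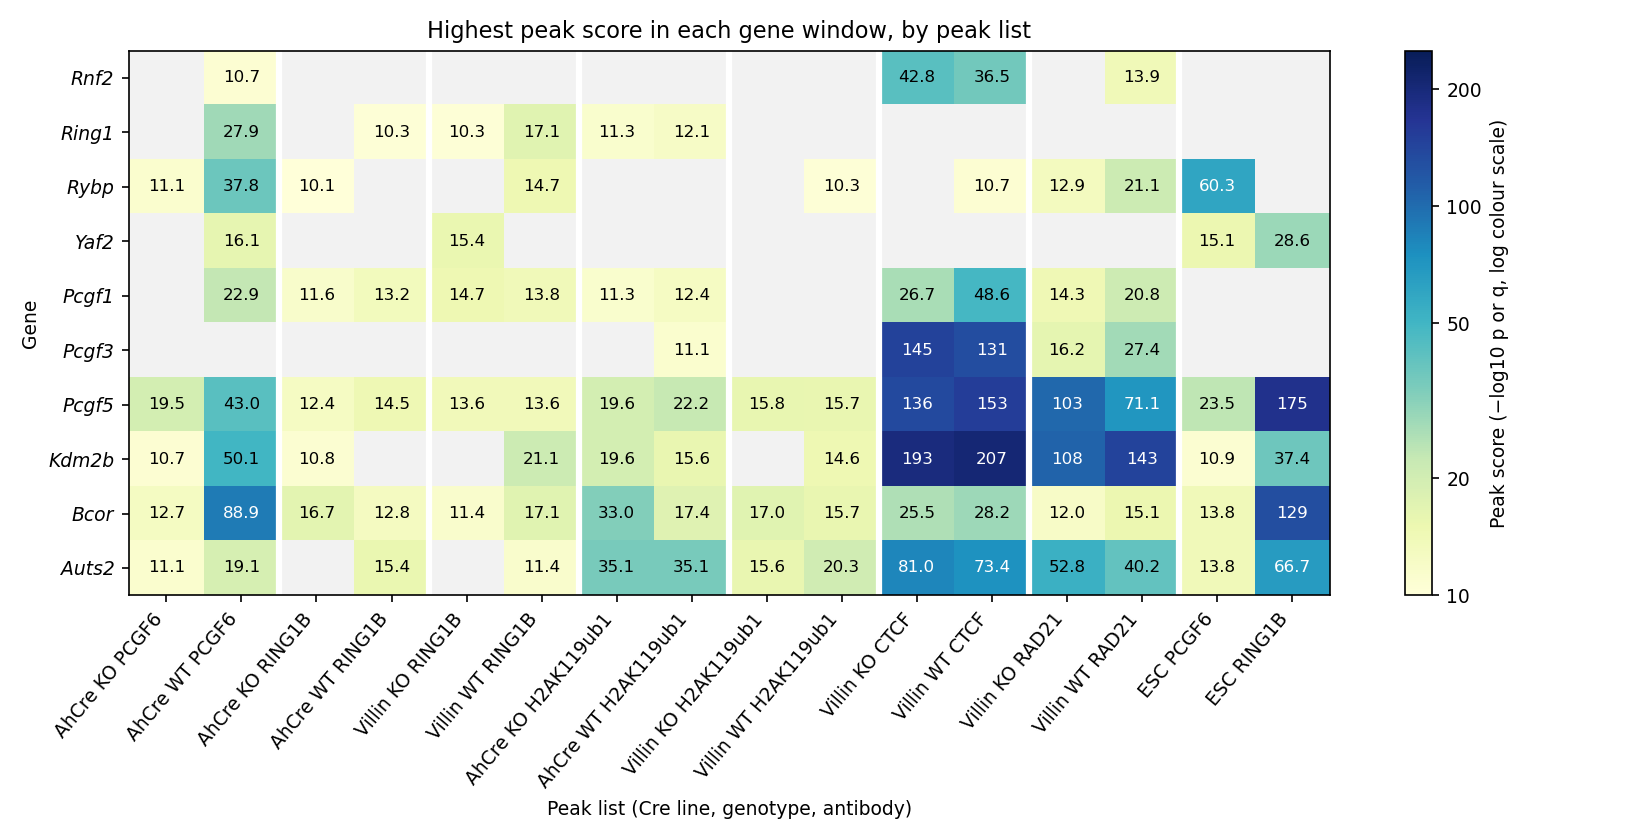
Highest peak score of each gene (rows) in each of the 16 peak lists (columns, KO left of WT), as −log10 p or q on a log colour scale; grey cells had no peak of score 10 or more. Bcor and Pcgf5 are filled in every column, while Rnf2 and Pcgf3 are filled mostly in the CTCF and RAD21 columns.

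PCGF6 lay at 5 members in KO crypts, where 17.7% of all genes had a peak, and at 9 members in WT crypts, where 47.9% did. Pcgf3 was the member with no PCGF6 peak in either genotype. The peak was lost at 4 of the 9 members, Rnf2, Ring1, Yaf2 and Pcgf1, meaning that no KO peak lay in the window and no WT peak there overlapped one. Of all genes with a WT peak 62.7% lost it in this sense. No member gained a PCGF6 peak, against 0.166% of the genes without a WT peak. How the members stood to the background depended on the setting. At gene ends alone 6 of 7 members lost the peak, against 64.4% of all genes, and at a score of 20 or more 6 of 6 did, against 78.1%. All 5 KO peaks at members scored under 20, so no member could keep its peak at that cut. Rybp, Pcgf5, Kdm2b and Bcor had KO peaks below it. With the lists cut to equal length, 1 of 5 lost it, against 27.5%, and 1 member gained one. The share of all genes that gained one under that setting is not given.

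**Figure D2:**
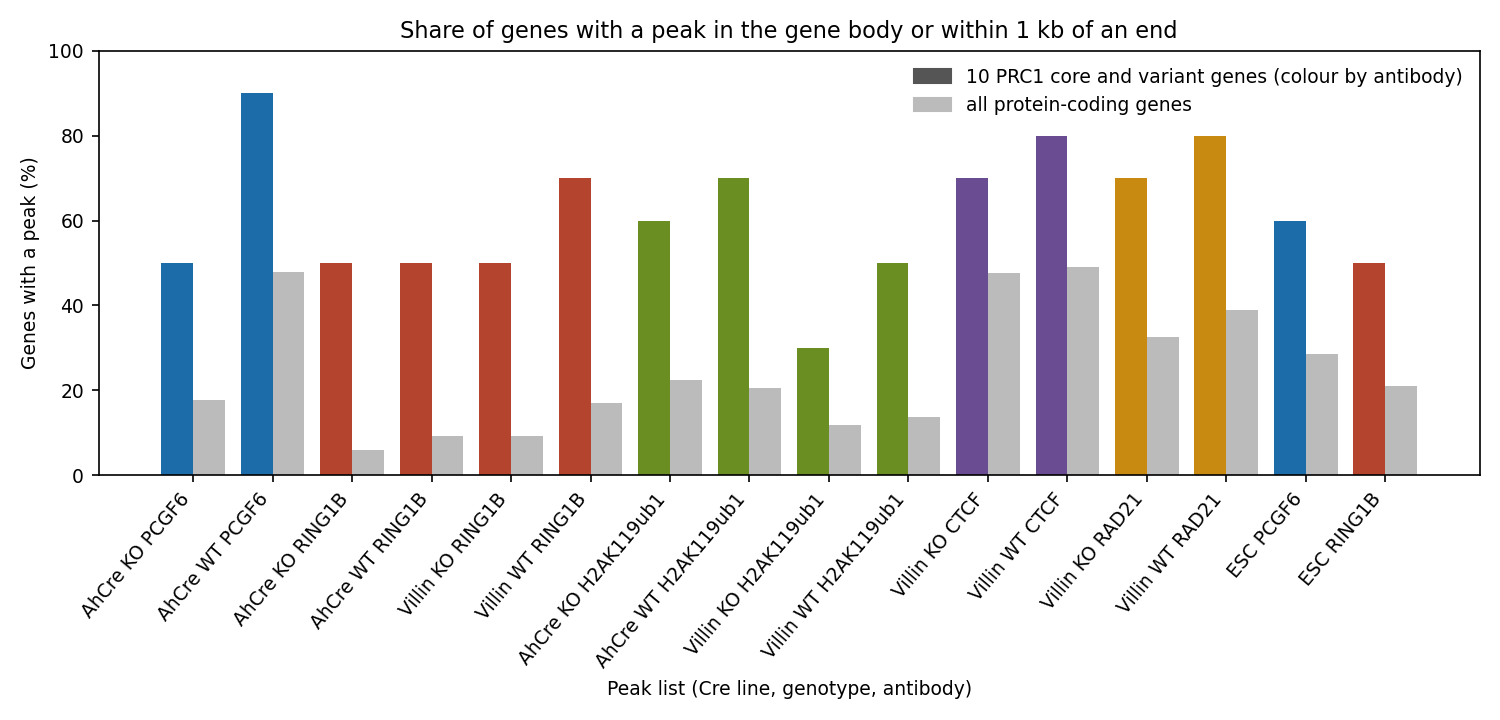
Percentage of genes with a peak in each list, for the 10 members (bars coloured by antibody) and for all 21887 protein-coding genes (grey bars), with KO left of WT in each pair. The members stand above all genes in every list, and for WT PCGF6 the shares are 90.0% and 47.9%. The members are also longer, with a median length of 55.9 kb against 17.2 kb.

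Among the catalytic subunits, Ring1 had a WT PCGF6 peak of score 27.9 at its start (chr17:34024290-34025158) and none in KO crypts. This peak also reached the window of the neighbouring gene H2-Ke6, and the H2AK119ub1 peaks counted for Ring1 reached those of H2-Ke6 and Slc39a7. Rnf2 had a WT peak of score 10.7 at its start (chr1:151500849-151501392), just above the floor of the list, and none in KO crypts. No other list had a peak there.

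Of the paralogues that take the place of CBX proteins, Rybp kept a PCGF6 peak of score 11.1 in KO crypts, where the WT score was 37.8. The WT peak lay just beyond the higher-coordinate end of the gene (chr6:100287689-100288989) and overlapped peaks of 7 other lists, those of RING1B, H2AK119ub1, RAD21 and ESC PCGF6 among them. Yaf2 had no KO peak, and its WT peak scored 16.1 (chr15:93337131-93337604). All 4 lists with a peak at Yaf2 had it beyond that end of the gene, between 93337043 and 93337934.

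The PCGF paralogues were not alike. Pcgf1 had a single PCGF6 peak in WT crypts, with a score of 22.9 (chr6:83077703-83078949), and none in KO crypts. Pcgf5 had 1 peak in KO crypts and 3 in WT crypts. The KO peak scored 19.5 and lay inside the strongest WT peak, in the gene body (chr19:36370877-36372473, score 43.0). The WT peaks at the start (14.3) and at the internal promoter with the E2F core (15.2) had no KO counterpart.

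The KDM2B, BCOR and AUTS2 genes carried several PCGF6 peaks in WT crypts and 1 each in KO crypts. Bcor had 6 WT peaks, the highest at 88.9, the strongest PCGF6 peak of any member, and its KO peak scored 12.7. Kdm2b had 4 WT peaks with a highest score of 50.1, and its KO peak of 10.7 matched a weaker WT peak of 29.8. Auts2 had 5 WT peaks, none above 19.1, and a KO peak of 11.1. At gene ends alone, PCGF6 was listed at 1 member in KO and 7 in WT crypts, against 13.7% and 39.9% of all genes. Over all members, 5 of the 23 WT peaks (21.7%) overlapped a KO peak, against the 26.9% of all WT peaks given above. The 5 KO peaks ran from 10.7 to 19.5 with a median of 11.1, and the 23 WT peaks ran from 10.7 to 88.9 with a median of 19.8. In their own lists, the median KO member peak outranked 15.5% of the peaks and the median WT member peak 55.6%.

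RING1B peaks at the members had low scores in crypts, as did most peaks of these lists. In the AhCre line 5 members had one in KO crypts and 5 in WT crypts, against 5.97% and 9.22% of all genes. The 7 member peaks of the KO list scored 10.1 to 16.7 and the 7 of the WT list 10.3 to 15.4. In the Villin line 5 members had a peak in KO crypts and 7 in WT crypts, against 9.3% and 17.0% of all genes. The 5 KO peaks scored 10.3 to 15.4 and the 14 WT peaks 10.4 to 21.1. All but 1 of these 33 peaks were under 20, and the exception was the Villin WT peak in the body of Kdm2b. The member medians were 10.8 in KO and 12.8 in WT crypts of the AhCre line, against 15.8 and 16.3 for all peaks. In the Villin line they were 13.6 in KO and 13.7 in WT crypts, against 14.8 and 14.7 for all peaks.

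Pcgf1, Pcgf5 and Bcor had overlapping RING1B peaks in KO and WT crypts of both lines. At Pcgf1 the scores were 11.6 in KO and 13.2 in WT crypts of the AhCre line, and 14.7 in KO and 13.8 in WT crypts of the Villin line. At the Pcgf5 start they were 12.4 in KO and 14.5 in WT crypts of the AhCre line, and 13.6 in both genotypes of the Villin line. These scores differ little beside the range of the lists, and their error is unknown. At gene ends alone, RING1B was listed at 3 members in KO and 3 in WT crypts of the AhCre line, against 4.89% and 7.74% of all genes, and at 4 in KO and 7 in WT crypts of the Villin line, against 7.61% and 14.2%. Of the WT RING1B peaks at members, 4 of 7 (57.1%) overlapped a KO peak in the AhCre line and 4 of 14 (28.6%) in the Villin line, against 56.2% and 44.9% of all WT peaks.

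In the AhCre line Ring1 and Auts2 lost their RING1B peak, 2 of the 5 members with a WT peak, where 45.2% of all such genes did. Rybp and Kdm2b gained one, where 1.02% of the genes without a WT peak did. In the Villin line Rybp, Kdm2b and Auts2 lost it, 3 of 7, against 52.7% of all such genes, and Yaf2 gained one, against 1.59%. Auts2 thus lost RING1B peaks in both lines, as did 1.48% of all genes, or 325 of the 913 that lost it in AhCre crypts. The lost Auts2 sites were far apart: chr5:132395287-132395707 in AhCre crypts (score 15.4) and chr5:132541457-132542339 in Villin crypts (11.4).

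Rybp and Kdm2b went opposite ways in the lines, a combination that 65 genes, or 0.297% of all genes, showed. Those 65 were among the 203 genes that gained RING1B in the AhCre line, so the combination was not rare among gained genes. At Rybp the RING1B peak scored 10.1 in AhCre KO crypts with none in AhCre WT crypts, whereas in the Villin line there was none in KO crypts and one of 14.7 in WT crypts. Both lay on the same stretch, the KO one at chr6:100287892-100288651 and the WT one at chr6:100287859-100288566. At Kdm2b they did not coincide. The AhCre KO peak (chr5:122900579-122901312, score 10.8) overlapped the upstream edge of the internal promoter printed above, and the Villin WT peaks (21.1 and 11.4) lay at chr5:122951654-122952766 and chr5:122987689-122988536. At a score of 20 or more, no member had lost or gained RING1B in the AhCre line. Both AhCre KO peaks sat within 1 unit of the score floor, and whether AhCre WT crypts lacked RING1B there or fell just below the floor was not tested.

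H2AK119ub1 was listed at 6 members in AhCre KO crypts and at 7 in AhCre WT crypts, against 22.5% and 20.6% of all genes. In the Villin line it was listed at 3 members in KO crypts and at 5 in WT crypts, against 11.8% and 13.6%. Pcgf3 lost its single peak in AhCre crypts, a loss that 13.1% of all genes with a WT peak showed. That peak scored 11.1 and lay before the start (chr5:108458057-108460746). Rybp and Kdm2b lost theirs in Villin crypts, with WT scores of 10.3 and 14.6, where 28.2% of all such genes did. No member gained the mark in either line, against 5.8% of genes without a WT peak in the AhCre line and 2.45% in the Villin line. Of its WT peaks at members, 32 of 50 (64.0%) overlapped a KO peak in the AhCre line and 9 of 25 (36.0%) in the Villin line, against 69.2% and 54.8% of all WT peaks. Pcgf1 counted as marked in both AhCre genotypes, yet its KO peak (chr6:83073973-83076643) and its WT peak (chr6:83077007-83077531) did not overlap.

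H2AK119ub1 was spread widest over Bcor and Auts2. At Bcor the peaks covered 48.9 kb in AhCre KO crypts, which is 38.9% of the window, and 14.5 kb in AhCre WT crypts. In the Villin line they covered 8.73 kb in KO crypts and 16.2 kb in WT crypts. The KO minus WT difference was thus 34.4 kb in the AhCre line and -7.47 kb in the Villin line. Pcgf5 and Auts2 had the same pair of signs with smaller values: at Pcgf5 2.98 kb in the AhCre line and -1.03 kb in the Villin line, and at Auts2 2.0 and -5.18 kb. Inside their windows, the other 4 members marked in AhCre crypts went the other way in that line. The differences were -0.47 kb at Kdm2b, -0.488 kb at Pcgf3, -0.433 kb at Pcgf1 and -0.166 kb at Ring1. The sign at Pcgf1 came from the window edge: its KO peak was 2671 bp wide with 92 bp inside, and its WT peak was 525 bp wide. Peaks at Pcgf3 and Ring1 also reached beyond the window. The whole-genome totals had the signs seen at Bcor, with 31.4 Mb covered in AhCre KO crypts against 28.0 Mb in WT crypts, and 8.54 Mb in Villin KO crypts against 10.2 Mb in WT crypts. The part of that shift in the values at Bcor, Pcgf5 and Auts2 was not tested. Drosophila chromatin had been added to these samples at 5%, but no spike count entered the values used here.

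Bcor, on the X chromosome, brought most of these signals together on 2 stretches of its body. The strongest PCGF6 peak of WT crypts there was 4938 bp wide (chrX:12086919-12091856), centred 70958 bp from the start of the gene. The KO peak (chrX:12089253-12090540) lay inside it. RING1B was listed on or beside this stretch in all 4 crypt lists, with scores of 16.7 in KO and 12.8 in WT crypts of the AhCre line, and 11.4 in KO and 17.1 in WT crypts of the Villin line. In ESC this region was covered by a RING1B peak of 16261 bp (chrX:12076498-12092758, score 115), and the other stretch by one of 15015 bp (chrX:12125835-12140849, score 129).

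Of the 65 peaks of PCGF6, RING1B and H2AK119ub1 that the 10 crypt lists held at Bcor, 54 overlapped 1 of its 4 ESC RING1B peaks. The other 11 were H2AK119ub1 peaks: 10 of the 20 in AhCre KO crypts lay outside the ESC peaks, none of the 7 in AhCre WT crypts and none of the 7 in Villin KO crypts did, and 1 of the 10 in Villin WT crypts did. The strongest AhCre KO ubiquitin peaks scored 33.0, at chrX:12125890-12128179 and chrX:12136105-12140312, and the highest WT one scored 17.4. RING1B peaks at Bcor numbered 3 in KO and 3 in WT crypts of the AhCre line, and 1 in KO and 7 in WT crypts of the Villin line.

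**Figure D3:**
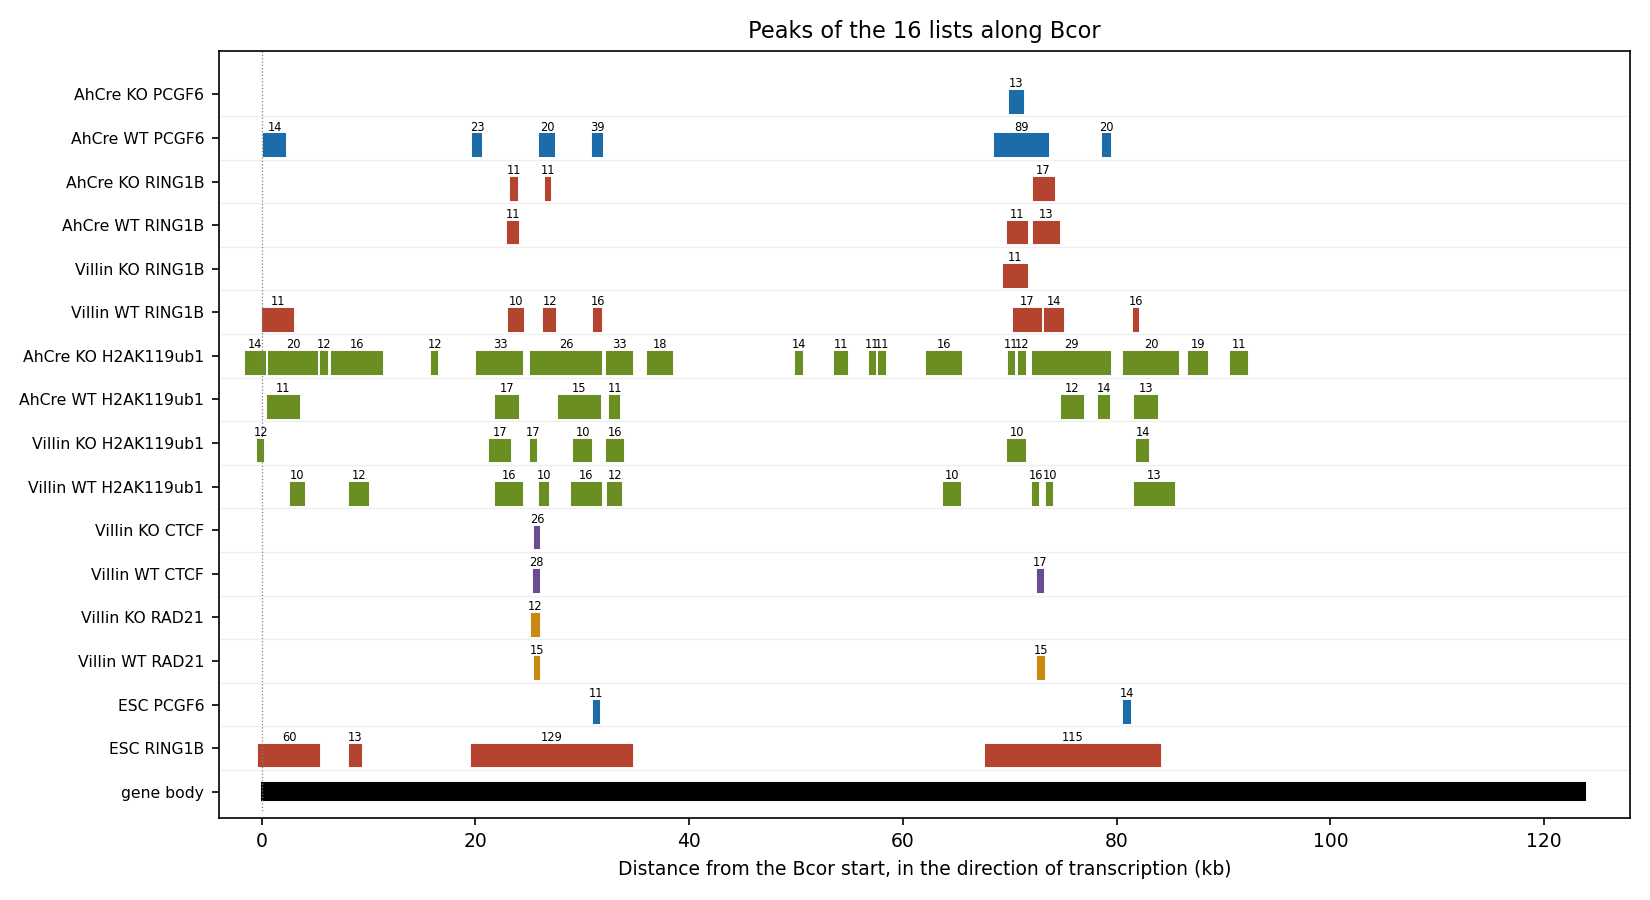
Peaks along Bcor in the 16 lists (rows, KO above WT), by distance in kb from the start in the direction of transcription; boxes are drawn to scale with the peak score above each. PCGF6, RING1B and H2AK119ub1 boxes gather over the 2 stretches covered by the wide ESC RING1B peaks, and the AhCre KO H2AK119ub1 row holds 20 boxes against 7 in the WT row.

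Kdm2b had its clearest shared site in the gene body. The WT PCGF6 peak at chr5:122951579-122952616 (score 50.1) had no counterpart in KO crypts. H2AK119ub1 covered the same site in AhCre crypts, with a score of 19.6 in KO crypts and 15.6 in WT crypts. In Villin crypts a RING1B peak of 21.1 lay on it in WT and none in KO. AhCre crypts of either genotype had no RING1B peak on it, and PCGF6 was not profiled in the Villin line. The Villin ubiquitin peak of 14.6 beside it (chr5:122950691-122951410) was also listed in WT crypts alone. ESC had a PCGF6 peak of 10.9 and a RING1B peak of 37.4 on this site.

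**Figure D4:**
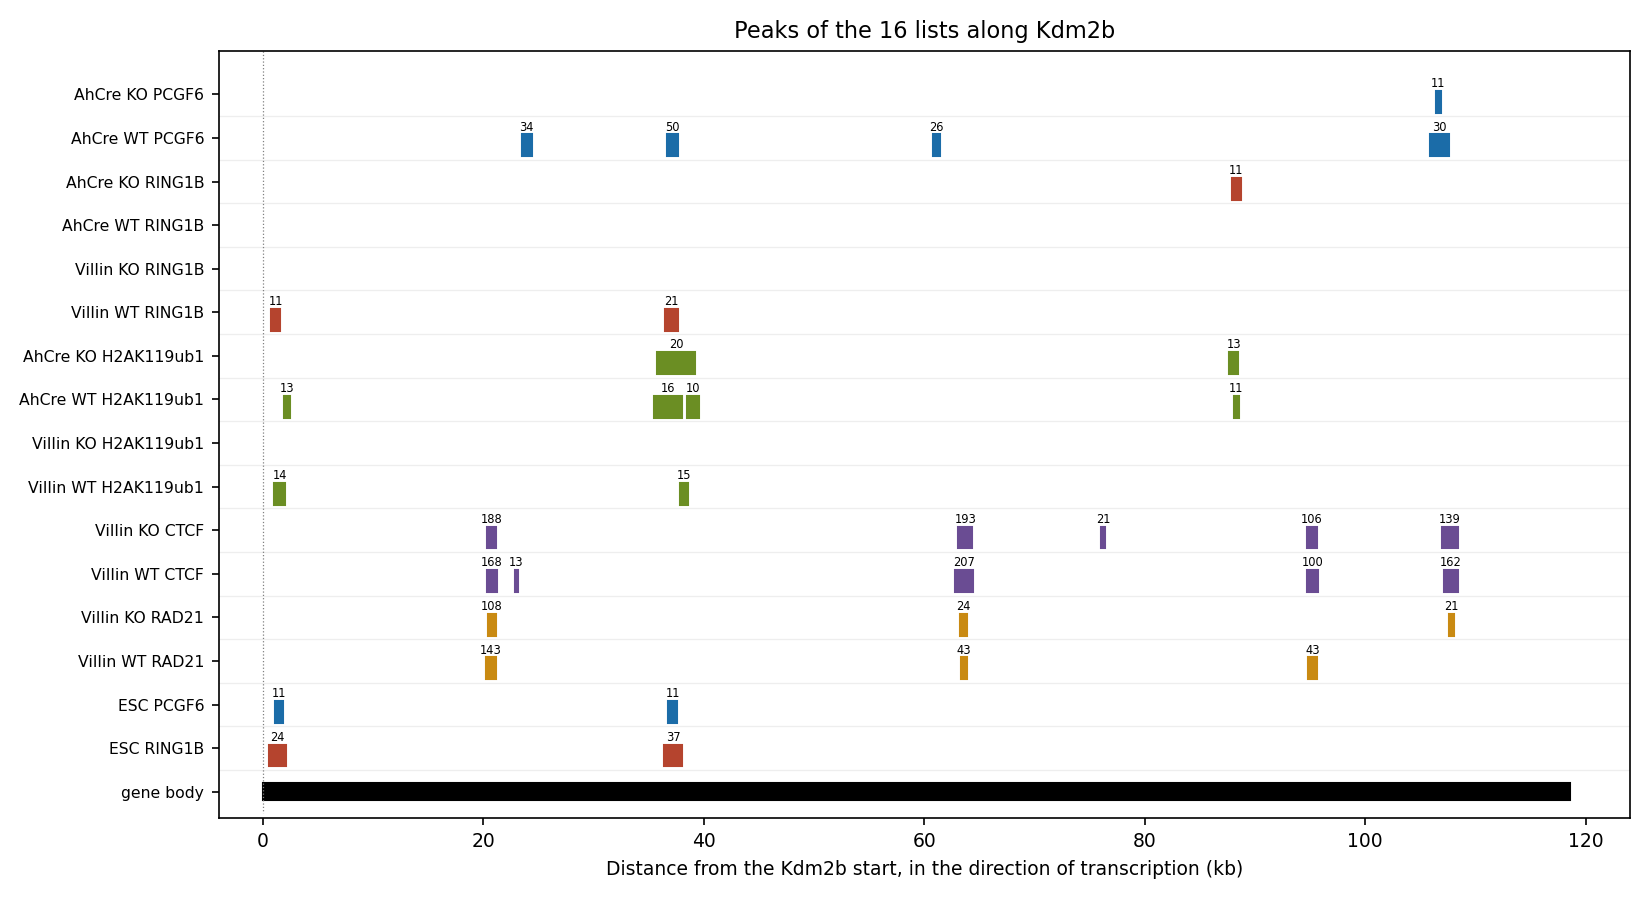
Peaks along Kdm2b in the 16 lists (rows, KO above WT), by distance in kb from the start at the higher-coordinate end, in the direction of transcription; boxes are to scale with the score above each. WT crypts have 4 PCGF6 boxes against 1 in KO crypts, and the CTCF rows have 5 boxes in each genotype.

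At Pcgf5 the crypt RING1B peaks and the H2AK119ub1 block lay at separate places along the gene. RING1B lay at the start in all 4 crypt lists, on the WT PCGF6 peak of 14.3, and in ESC, where that peak was 2931 bp wide and scored 175, the highest RING1B score at any member. PCGF6 was strongest in the body, where its KO and WT peaks overlapped the edge of the H2AK119ub1 block. That block ran over chr19:36371942-36375449 in AhCre KO crypts (score 19.6) and chr19:36372145-36375523 in WT crypts (22.2), and scored 15.8 in KO and 15.7 in WT crypts of the Villin line. No crypt RING1B peak was listed on the block in either genotype. AhCre WT crypts also had an H2AK119ub1 peak of 14.9 before the start (chr19:36346061-36347684). It overlapped the ESC RING1B peak but no KO H2AK119ub1 peak and no crypt RING1B peak. CTCF and RAD21 shared a site further on in both genotypes, near 36440 kb of chromosome 19, and RAD21 also had a peak of 17.4 at the start in WT crypts.

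**Figure D5:**
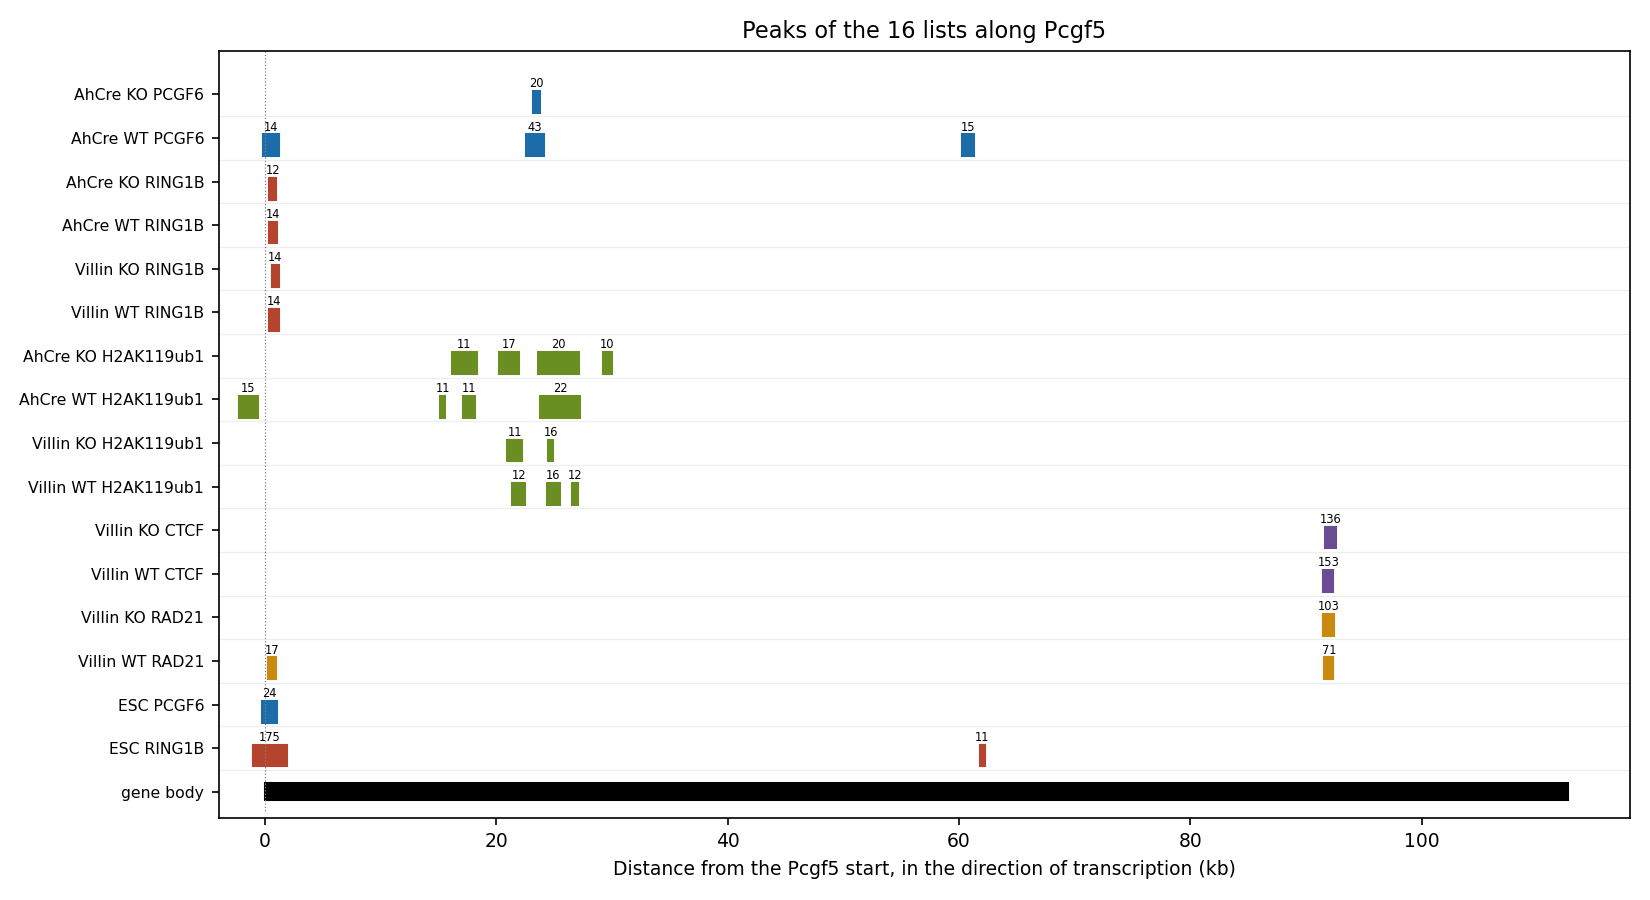
Peaks along Pcgf5 in the 16 lists (rows, KO above WT), by distance in kb from the start in the direction of transcription; boxes are to scale with the score above each. The crypt RING1B boxes stand at the start and most H2AK119ub1 boxes in the body around the strongest PCGF6 peaks, the CTCF boxes lie further along the gene, and RAD21 has a box there in both genotypes and one of score 17 at the start in WT crypts.

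Auts2, the longest member at 1105888 bp, had scattered peaks. Its H2AK119ub1 peaks numbered 33 in AhCre KO and 32 in AhCre WT crypts, and 7 in KO and 9 in WT crypts of the Villin line. They covered 63.1 kb in KO and 61.1 kb in WT crypts of the AhCre line, which is 5.69% and 5.52% of the window. Of the 89 crypt peaks of PCGF6, RING1B and H2AK119ub1 at Auts2, 8 overlapped an ESC RING1B peak. The ESC RING1B peaks covered 0.348% of the Auts2 window and 30.1% of the Bcor window, so the overlap counts of these genes are not comparable. Of the 227 genes of 500000 bp or more, 37.9% had a PCGF6 peak in WT AhCre crypts, 30.8% an H2AK119ub1 peak there and 70.5% a RING1B peak in ESC, against 47.9%, 20.6% and 21.1% of all genes.

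The insulator protein CTCF was listed at 7 members in KO and 8 in WT crypts of the Villin line, against 47.7% and 49.0% of all genes. The cohesin subunit RAD21 was likewise listed at 7 in KO and 8 in WT crypts, against 32.6% and 38.9%. Of the 2429 genes of 100 kb or more, 82.0% had CTCF in KO and 82.1% in WT crypts. RAD21 was listed at 64.6% of those long genes in KO and 68.4% in WT crypts. The part of gene length in the member counts was not tested. Rybp lost a CTCF peak of 10.7, where 5.94% of all genes with one did, and Rnf2 lost a RAD21 peak of 13.9, where 21.3% did. No member gained either, against 3.25% of genes without a WT peak for CTCF and 3.22% for RAD21. The strongest CTCF peaks of the members scored 193 in KO and 207 in WT crypts at Kdm2b, 145 in KO and 131 in WT crypts at Pcgf3, and 136 in KO and 153 in WT crypts at Pcgf5. Pcgf1 had a weaker one, of 26.7 in KO and 48.6 in WT crypts. Of the members' WT peaks 18 of 23 CTCF peaks (78.3%) and 11 of 17 RAD21 peaks (64.7%) overlapped a KO peak, against 90.8% and 75.6% of all WT peaks. Ring1 and Yaf2 had no peak of either protein. At Rybp the RAD21 peak overlapped the PCGF6 site and no CTCF peak, with scores of 12.9 in KO and 21.1 in WT crypts. At the other members with RAD21, at least 1 RAD21 peak overlapped a CTCF peak, in 6 of 7 members in KO and 7 of 8 in WT crypts, against 93.8% and 86.9% of all genes with RAD21.

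Several member sites in crypts coincided with those of ESC. Of the 9 members with a WT crypt PCGF6 peak, 6 had one that overlapped an ESC PCGF6 peak, against 39.2% of all such genes: Rybp, Yaf2, Pcgf5, Kdm2b, Bcor and Auts2. ESC had PCGF6 at 6 members and RING1B at 5, against 28.6% and 21.1% of all genes. Of the 2429 genes of 100 kb or more, 48.3% had PCGF6 and 46.6% had RING1B in ESC. In ESC the highest member score for PCGF6 was 60.3, at Rybp, which had no ESC RING1B peak. RING1B in WT crypts overlapped ESC RING1B at 2 of 5 members in the AhCre line and at 4 of 7 in the Villin line, against 64.6% and 53.3% of all such genes. Between the WT crypts of the lines, Villin RING1B overlapped AhCre RING1B at 4 of 7 members, Ring1, Pcgf1, Pcgf5 and Bcor, against 46.5% of all such genes. Rnf2, Ring1, Pcgf1 and Pcgf3 had no peak in either ESC list.

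Overlap between the antibodies was uneven. In AhCre KO crypts PCGF6 overlapped RING1B at 1 of 5 members, Rybp, and in WT crypts at 4 of 9, Ring1, Pcgf1, Pcgf5 and Bcor, against 4.91% and 12.0% of all genes with PCGF6. Read the other way, RING1B overlapped PCGF6 at 1 of 5 members with RING1B in KO and 4 of 5 in WT crypts, against 15.0% and 62.6% of all such genes. PCGF6 overlapped H2AK119ub1 at 2 of 5 members in KO and 5 of 9 in WT crypts, against 7.78% and 15.8%. RING1B overlapped H2AK119ub1 at 2 of 5 members in AhCre KO and 1 of 5 in AhCre WT crypts, against 75.5% and 67.3% of all genes with RING1B. In the Villin line it did so at 1 of 5 members in KO and 4 of 7 in WT crypts, against 49.4% and 41.2%. Bcor was the one member where RING1B met the mark in all 4 pairs of lists.

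The other PRC1 genes were scanned in the same way. PCGF6 was listed at 17.7% of all genes in KO and 47.9% in WT crypts. Of 9 further partners of the variant complexes it was listed at 1 in KO and 6 in WT crypts. Of 10 genes for subunits of the PCGF6 complex it was listed at 6 in KO and 10 in WT crypts, and of 12 genes for canonical subunits at 4 in KO and 9 in WT crypts. Some of the genes for PCGF6 complex and canonical subunits had higher scores than the 88.9 of Bcor, while none of the further variant partners had more than 43.3. Mga, whose product binds DNA for the PCGF6 complex, had 325 in KO and 1680 in WT crypts, and E2f6, which encodes a repressive E2F factor, had 37.5 in KO and 254 in WT crypts. Tfdp1, which encodes the dimer partner of E2F factors, had 82.5 in KO and 318 in WT crypts, the deacetylase gene Hdac2 had 75.7 and 313, and the polyhomeotic gene Phc2 had 49.9 and 209. Hdac2 was also the 1 gene of these lists that lost RING1B in both Cre lines, as did 1.48% of all genes. By the number of lists in which 2 genes were in the same state, with or without a peak, Bcor and Pcgf5 matched each other in 16 of 16, a state that each shared with 55 other protein-coding genes, since it is that of a peak in every list. Rnf2 was most like Pcgf3 among the members, in 13 of 16 lists, and Kdm2b and Auts2 were most like Phc2 among the other PRC1 genes, in 14 and 15 lists.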

How the data were processed

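Per the labels, fixation of the crypts took 15 min in 1% formaldehyde, with quenching for 10 min and sonication to 500 bp, and H2AK119ub1 chromatin had 5% Drosophila S2 chromatin added. Per the submitters' processing notes, the tools were MACS2 2.1.1 and Bowtie in versions 1.1.2 and 1.2.2, with hg38, dm6 and mm10 as builds. The role of each and their settings are not given in the sources used here. The authors deposited 1 peak list for each of the 16 ChIP samples, and its score is a −log10 p or q value that was used as deposited. The 6 input samples were not used.

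Starts of peaks were converted to 1-based positions. Genes were those of a RefSeq table of GRCm38.p6, and the strand and start sites of Rybp, Yaf2, Pcgf1 and Auts2 were not used here. Peaks shared a site when they overlapped by 1 bp. A lost gene had at least 1 WT peak in the window, no KO peak in it, and no overlap between those WT peaks and the KO list anywhere. A gained gene was the reverse. With 1 library per group no test was made. The main counts of members are set against all 21887 genes, or against those of them with a peak, and the counts of the closing sections stand alone. Covered length counts the part of a peak inside the window. The members, the other PRC1 lists and the motifs were chosen with earlier results of these data known. Named outside the members were the 5 genes of the other PRC1 lists with the highest WT PCGF6 score, those that lost RING1B in both lines, the genes most like a member by peak state, neighbours that share a member peak, and Pcgf6. An item that this rule names is not reported here. Alternatives were gene ends alone, a window of 5 kb, a score of 20 or more, an overlap of 50% of the shorter peak, and lists cut to equal length. In the ESC descriptions 1 line exchanges the names PCGF6 and RING1B, and the titles and antibody tags were used. Peak assignment was checked against bedtools 2.31.1, with 0 differing windows, and on simulated data 200 of 200 planted losses were found. Python 3.11.15, numpy 2.4.6, pandas 2.3.3 and matplotlib 3.10.9 were used.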

Additional observations from a re-analysis of the deposited data

Results flagged for a closer look

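At Rybp and at Kdm2b, RING1B was listed in AhCre KO crypts and not in AhCre WT crypts, while in the Villin line it was not listed in KO crypts and was listed in WT crypts. The AhCre KO peaks scored 10.1 at Rybp and 10.8 at Kdm2b. The difference between the lines was not tested.

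The length covered by H2AK119ub1 peaks also differed in sign between the lines at 3 genes. KO minus WT it was 34.4 kb in the AhCre line and -7.47 kb in the Villin line at Bcor, 2.98 and -1.03 kb at Pcgf5, and 2.0 and -5.18 kb at Auts2. These differences were not tested.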

How the results depend on the processing

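No paired analysis was possible because each group had 1 library. Requiring an overlap of 50% of the shorter peak could not move any of the 14 counts of lost and gained members. That rule acts only on members listed in 1 genotype whose peak overlaps the other list, and there were none. A window of 5 kb moved 1 of 16 counts of members with a peak, Villin WT H2AK119ub1, to 8. Gene ends alone moved 13 of 30 counts, a score of 20 or more 19 of 30, and lists cut to equal length 6 of 14. Shares of all genes are not set beside the counts that follow, so these counts do not place the members against the background.

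With gene ends alone, members with a peak numbered 1 for KO PCGF6, 3 and 3 for AhCre KO and WT RING1B, 3 for Villin WT H2AK119ub1, 1 and 1 for KO and WT CTCF, and 2 and 3 for KO and WT RAD21. AhCre RING1B was then lost at 1 and gained at 1, AhCre H2AK119ub1 lost at 2, Villin H2AK119ub1 gained at 1 and CTCF lost at 0.

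At a score of 20 or more, members with a peak numbered 0 for KO PCGF6, 0 and 0 for AhCre KO and WT RING1B, 0 and 1 for Villin KO and WT RING1B, 2 and 2 for AhCre KO and WT H2AK119ub1, 0 and 1 for Villin KO and WT H2AK119ub1, 3 for KO RAD21 and 2 for ESC PCGF6. AhCre RING1B was lost at 0 and gained at 0, Villin RING1B lost at 1 and gained at 0, AhCre H2AK119ub1 gained at 1, Villin H2AK119ub1 lost at 1, CTCF lost at 0 and RAD21 lost at 3.

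With lists of equal length, PCGF6 was lost at 1 and gained at 1, AhCre RING1B lost at 1, Villin RING1B gained at 3, Villin H2AK119ub1 lost at 1 and CTCF lost at 0. A stricter score or a narrower window leaves fewer peaks by construction, and beyond that the cause was not tested. Depth is unknown, so a peak near the floor of 10 that is listed in 1 genotype does not show that the other lacked it.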
